A study of Mus musculus with 24 samples.

Results

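The hepatic expression of 10 tubulin genes was described in mice of 2 lineages: Tuba8, Tuba1a, Tuba1b, Tuba1c and Tuba4a of the alpha family, Tubb2a, Tubb2b, Tubb5 and Tubb6 of the beta family, and Tubg1 of the gamma family. They were found by an exact match of the gene name given for each array probe, which returned all 10 among 36693 gene names on the array. The set had been chosen by the lower Tuba8 signal of mice fed the obesogenic diet in the control lineage against reference mice. For this reason, the values of the 10 genes in that comparison are given as a description and without a test. The set had 15 probes, and 14 of them, for 9 genes, were bright enough to be tested. Tubb2b, with a single probe, was not.

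RNA from the liver of 24 male C57Bl6J mice of the third generation was hybridized on one-colour arrays, with 1 array per mouse. The reference group (STD_Cont, n = 9) belonged to the "Control fatty acid" lineage, bred with a supplement of high-oleic sunflower oil, and received a low-fat diet. The HFoleic group (HFD_Cont, n = 8) belonged to the same lineage and received an obesogenic diet rich in fat and sucrose. The HFepa group (HFD_O3, n = 7) received the obesogenic diet and belonged to a lineage bred with a fish oil supplement, mainly eicosapentaenoic acid (EPA), an omega 3 fatty acid. All animals were killed while fasting, and the EPA lineage has no group on the low-fat diet here, so diet and lineage cannot be told apart when HFepa is set against the reference. Between 50.89% and 60.83% of the probes of an array were well above background, and no spot was saturated.

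Alpha and beta tubulin form the dimers from which microtubules, the tracks of intracellular transport and of the mitotic spindle, are built, and gamma tubulin sits in the ring complexes that start their growth. Each family has several genes whose proteins are very alike and differ most at the C-terminal tail, where enzymes attach and remove glutamate, glycine and tyrosine. In hepatocytes, microtubules carry lipoproteins, vesicles and lipid droplets. Tuba8 is the most divergent alpha tubulin of the set and was first described in muscle and testis. Its tail ends in phenylalanine, whereas that of most alpha tubulins is encoded with a final tyrosine that can be removed and put back.

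What the probes read decides how far members of such a family can be kept apart. The Tuba8 probe (A_66_P119518, chr6:121176046-121176105 in mouse build mm9, plus strand) covered the end of the coding sequence. Its coding part follows, 5′ to 3′, with the codon of the final phenylalanine and the stop codon in capitals. Over its 60 bases it shared no run longer than 9 bases with any of the 28 other tubulin probes on the array. Those probes can lie at other places of their transcripts. The Tuba8 probe was not compared with the transcripts themselves, so whether it also binds other tubulin transcripts was not tested. A probe annotated to Tuba1c is listed with transcripts of 3 genes, Tuba1a, Tuba1b and Tuba1c, and its reading may mix these 3 genes. No other member probe is listed with more than 1 gene. This rests on RefSeq accessions, of which 18 of 20 were found, and Tuba1a probe A_55_P2115057 had no RefSeq gene. The sequences of the other member probes were not compared with each other, so they were not shown to read a single gene.
Tuba8: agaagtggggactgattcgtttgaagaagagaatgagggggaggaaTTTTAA

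Levels below are log2 normalised signals, and differences are log2 differences between group means with their standard error (SE) and 95% confidence interval (CI) from a limma fit over all 30003 tested probes. Adjusted p-values are Benjamini-Hochberg values over all of these probes. Where a gene had several probes, the brightest was read first. As probes differ in brightness, levels of different genes are not compared with each other. In whole liver, fewer cells of a type and less RNA per cell cannot be told apart.

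Tuba8 was lowest in HFoleic livers, highest in reference livers and in between in HFepa livers. In the 9 reference livers the lowest signal was 8.77, the median 10.43 and the highest 12.43. In HFoleic livers the corresponding values were 7.57, 8.16 and 9.22, and in HFepa livers 8.29, 9.36 and 10.29. All 8 HFoleic livers were below the reference mean and 6 of them were below every reference liver. HFoleic replicates 3 and 5, at 9.05 and 9.22, reached into the range of reference replicates 4 and 8, at 8.77 and 9.18. The groups therefore overlapped.

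**Figure D1:**
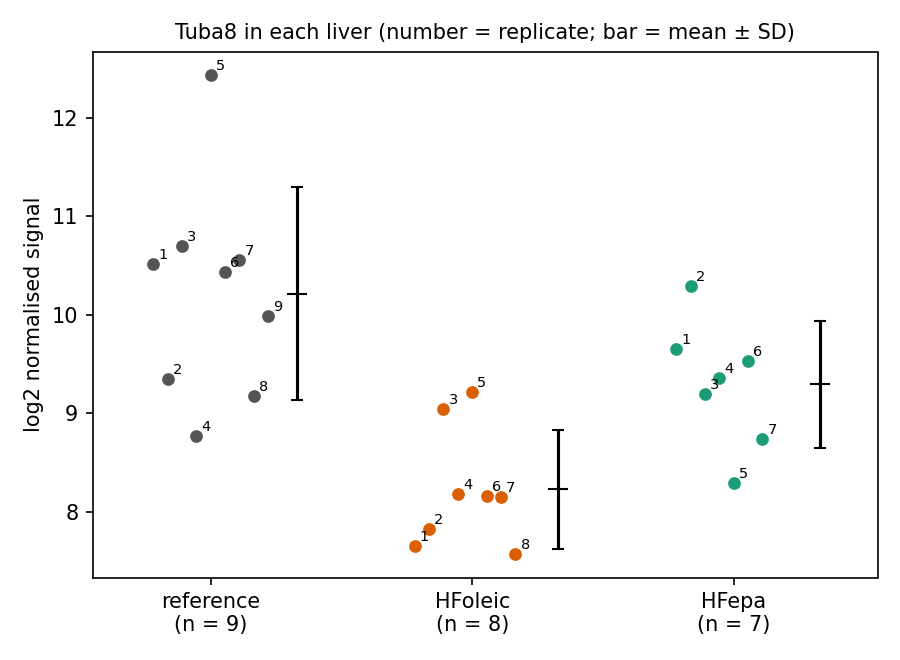
Tuba8 signal (log2 normalised signal, vertical axis) in each liver of the 3 groups, with points numbered by replicate and bars at the mean ± SD. HFoleic livers span 7.57 to 9.22, HFepa livers 8.29 to 10.29 and reference livers 8.77 to 12.43, with reference replicate 5 at the top.

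The mean Tuba8 signal was 10.21 ± 1.08 (SD, n = 9) in the reference group. It was 8.23 ± 0.61 (SD, n = 8) in HFoleic livers, and HFepa livers had 9.30 ± 0.65 (SD, n = 7). HFoleic was lower than the reference by 3.96-fold, a log2 difference of -1.99 (SE 0.38, CI -2.76 to -1.21), which is the value that chose the set. Without reference replicate 5 the difference was -1.71. Within each of the 3 array slides it was -2.60, -1.92 and -1.38.

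Between the lineages on the obesogenic diet, Tuba8 was 2.10-fold higher in HFepa than in HFoleic, a log2 difference of 1.07 (SE 0.40, CI 0.24 to 1.89). All 7 HFepa livers were above the HFoleic mean and 4 were above every HFoleic liver. The difference did not pass the test after adjustment (limma, adjusted p = 0.369). The exact permutation test over these 15 livers gave p = 0.0081 (two-sided, unadjusted, 1 of 18 such tests on the 9 genes). The difference was 1.19, 1.02 and 0.89 within the 3 slides. Against the reference, HFepa was lower by 1.89-fold, a log2 difference of -0.92 (SE 0.39, CI -1.72 to -0.12), and 6 of 7 HFepa livers were below the reference mean. This difference did not pass either (limma, p = 0.027, adjusted p = 0.292, and p = 0.063 in the exact permutation test). In the order HFoleic, HFepa and reference, neither neighbouring pair that includes HFepa differed at an adjusted p under 0.05. The last 2 comparisons share HFoleic or reference arrays with the comparison that chose Tuba8, so they are not independent of it.

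Among the other alpha tubulins, Tuba1b, Tuba1c and Tuba4a had higher signals in HFoleic than in reference livers, opposite to Tuba8. Tuba1b and Tuba1c encode abundant alpha tubulins found in most dividing and non-dividing cells. For Tuba1c, the brightest probe (A_55_P2108837, 10 spots per array) ranged from 12.79 through a median of 13.12 to 13.81 in the reference, from 13.45 through 13.63 to 13.99 in HFoleic, and from 12.93 through 13.23 to 13.41 in HFepa. All 8 HFoleic livers were above the reference mean, but a single one, replicate 3, was above every reference liver, since reference replicate 5 stood at 13.81. The difference between HFoleic and reference was 0.50 (SE 0.11, CI 0.27 to 0.72), and 0.58 without reference replicate 5. Of the other Tuba1c probes, A_55_P2722644 gave 0.45, with 7 of 8 HFoleic livers above every reference liver. The probe listed with 3 genes gave 0.49, with 4 of 8 above every reference liver.

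The brightest Tuba1c probe separated the lineages under the obesogenic diet. All 7 HFepa livers were below all 8 HFoleic livers, a pattern found in this direction for 16 of 19336 genes (0.0827%). The difference was -0.46 (SE 0.12, CI -0.70 to -0.21), a 1.37-fold lower signal in HFepa, with an adjusted p = 0.185 in limma. In the exact permutation test, p was 0.00016 (two-sided, unadjusted). The other probes of the gene showed smaller differences with overlapping groups, -0.26 (adjusted p = 0.385) for A_55_P2722644 and -0.26 (adjusted p = 0.416) for the probe listed with 3 genes. HFepa and reference livers differed by 0.04 (CI -0.20 to 0.28) on the brightest probe and by 0.19 and 0.23 on the others, none of which passed the test (adjusted p of 0.928, 0.417 and 0.314).

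For Tuba1b, the brightest probe (A_55_P2154132) had a median of 12.64 in the reference (12.16 to 13.37), 12.99 in HFoleic (12.69 to 13.64) and 12.79 in HFepa (12.64 to 13.08). The difference between HFoleic and reference was 0.44 (SE 0.14) on this probe and 0.41 (SE 0.09) on the other probe of the gene, for which 5 of 8 HFoleic livers were above every reference liver. On this other probe, all 7 HFepa livers were below the HFoleic mean and 5 were below every HFoleic liver, with a difference of -0.31 (CI -0.50 to -0.11, limma adjusted p = 0.267). On the brightest probe this difference was -0.20 (CI -0.52 to 0.11, adjusted p = 0.699).

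Tuba4a, an alpha tubulin whose coding sequence lacks the final tyrosine codon, had a median of 9.41 in the reference (8.95 to 9.97), 9.84 in HFoleic (9.62 to 10.08) and 9.72 in HFepa (9.32 to 9.98). All 8 HFoleic livers were above the reference mean, with a difference of 0.40 (SE 0.12), and the second probe gave 0.32 (SE 0.10). The within-slide differences were uneven, 0.72, 0.22 and 0.27. The HFepa livers differed from the reference by 0.25 (CI 0.0017 to 0.50, limma adjusted p = 0.367) and from HFoleic by -0.15 (CI -0.41 to 0.10, adjusted p = 0.726).

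Tuba1a, an alpha tubulin best known from developing neurons, also had a higher mean in HFoleic than in reference livers. Its reference livers were widely spread (SD 0.62). Its median was 8.17 in the reference (7.90 to 9.56), 8.68 in HFoleic (8.27 to 9.23) and 8.37 in HFepa (8.15 to 8.99). Reference replicates 4 and 5, at 9.56 and 9.34, were above all HFoleic livers, and the difference between HFoleic and reference was 0.27 with a CI of -0.15 to 0.69, and 0.42 without replicate 4. The second probe, with a correlation of 0.97 over the 24 arrays with the first, gave 0.24. HFepa differed from the reference by 0.0072 (CI -0.43 to 0.44) and from HFoleic by -0.27 (CI -0.71 to 0.18), with adjusted p-values of 0.994 and 0.726 in limma.

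The beta tubulins went separate ways. Tubb5, the beta tubulin of most cell types, had a median of 10.67 in the reference (10.39 to 11.17), 11.03 in HFoleic (10.79 to 11.33) and 10.97 in HFepa (10.64 to 11.37). All 8 HFoleic livers were above the reference mean, with a difference of 0.37 (SE 0.11). HFepa stood close to HFoleic, with a difference of -0.08 (CI -0.32 to 0.16, limma adjusted p = 0.884), and above the reference by 0.29 (CI 0.05 to 0.52, adjusted p = 0.249), with 6 of 7 livers above the reference mean.

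Tubb2a had a median of 13.47 in the reference (13.15 to 15.06), 13.29 in HFoleic (12.87 to 14.64) and 13.37 in HFepa (12.96 to 14.14). It varied widely within each group, and both groups on the obesogenic diet were slightly lower than the reference, with differences of -0.34 (CI -0.89 to 0.22) for HFoleic and -0.33 (CI -0.91 to 0.24, limma adjusted p = 0.669) for HFepa. Without reference replicate 5 they were -0.18 and -0.17. Tubb6 had a median of 8.78 in the reference, 9.14 in HFoleic and 9.00 in HFepa, and a single reference liver, replicate 5, stood at 11.26. The difference between HFoleic and reference was 0.14 (CI -0.45 to 0.73) with this liver and 0.41 without it. Tubb2b, best known from neurons, was well above background on 2 reference arrays and on no other array, so that for HFoleic and HFepa it was not measured above background.

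Tubg1, the gamma tubulin that starts microtubule growth, was level across the groups, with medians of 10.79, 10.85 and 10.85 in reference, HFoleic and HFepa. Its differences were 0.0027 (CI -0.12 to 0.12) for HFoleic and 0.06 (CI -0.06 to 0.19, limma adjusted p = 0.720) for HFepa against the reference, the narrowest intervals of the 9 genes.

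**Figure D2:**
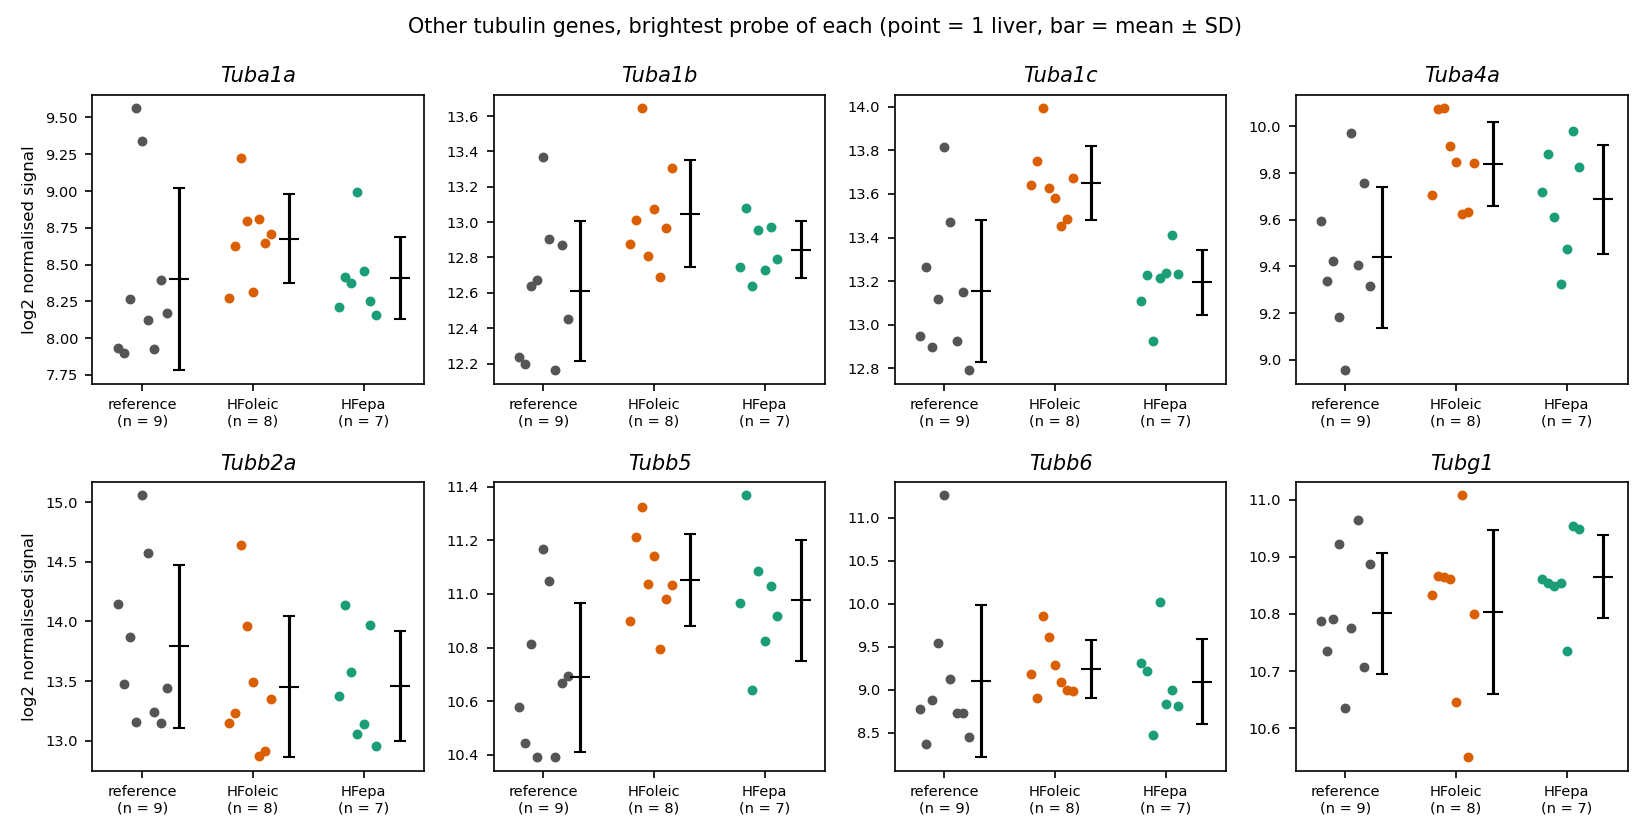
Log2 normalised signal (vertical axis, a separate scale per gene) of the brightest probe of the 8 other tubulin genes tested, with 1 point per liver and bars at the mean ± SD for each group. All HFepa livers lie below all HFoleic livers for Tuba1c, and reference replicate 5 is the high point at 11.26 for Tubb6.

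Between HFoleic and reference, the comparison that chose the set, 7 of the 9 genes had a higher mean in HFoleic and 2, Tuba8 and Tubb2a, a lower one, which is given without a test. The median difference of the 9 genes was 0.27, beside -0.0062 over all 20110 genes. Between HFepa and reference, none of the 9 passed (limma), and 0.388% of all genes did. Here 3 of the 9 had an unadjusted limma p under 0.05 (Tuba8, Tuba4a and Tubb5). Counted by probe, 4 of the 14 tubulin probes did, beside 4040 of all 30003 probes. Between HFepa and HFoleic, none of the 9 passed (limma), and the share over all genes was 0%. In this comparison 2 of the 9, Tuba8 and Tuba1c, had an unadjusted limma p under 0.05. Counted by probe, 5 of the 14 tubulin probes did, beside 2910 of all 30003 probes. Probes of the same gene are not independent readings. The methods' t-test with the same adjustment also passed none of the 9 genes in these 2 comparisons.

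**Figure D3:**
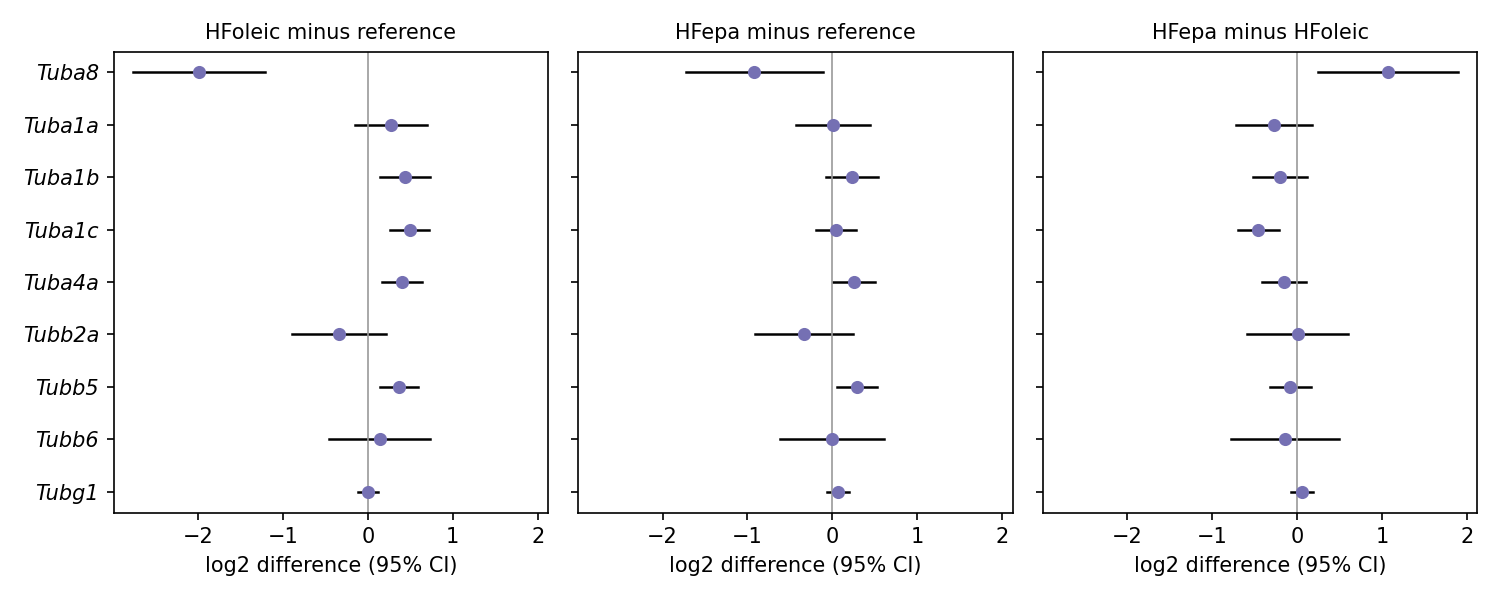
Log2 differences of the brightest probe of each of the 9 tested tubulin genes (points) with 95% confidence intervals (lines) in the 3 comparisons. Tuba8 lies at -1.99, -0.92 and 1.07 and Tuba1c at 0.50, 0.04 and -0.46, while the intervals of Tubg1 lie between -0.12 and 0.19.

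A single reference liver, replicate 5, stood apart in tubulin genes and in other genes. Among the 9 reference livers it had the highest signal for 7 of the 10 genes (Tuba8, Tuba1b, Tuba1c, Tubb2a, Tubb2b, Tubb5 and Tubb6) and the lowest for Tuba4a and Tubg1. The share of all genes for which this liver was highest or lowest was not counted. The count is therefore not read as particular to tubulin genes. Tuba8 stood there at 12.43, beside 10.70 in the next liver, and Tubb6 at 11.26 beside 9.54. In the same liver the summed linear signal of the cholangiocyte markers (bile duct cells, 4 of 8 genes tested) was 10786, beside 1396 to 3371 in the other 23 livers. Spp1 weighs most in this sum, with a reference mean of 10.91 on the log2 scale beside 6.12 for Krt7, 6.64 for Krt19 and 7.89 for Sox9. The summed signal of the stellate cell and fibroblast markers (10 of 10) was 61605, beside 18463 to 34904, and that of the hepatocyte markers (10 of 10) was the lowest of all, 1383400 beside 1490800 to 1611600. The part of these cell types in the tubulin signals was not tested. Without this liver, the log2 difference of Tuba8 between HFepa and reference was -0.64, and that of Tubb6 went from -0.0026 to 0.27.

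Within the groups, several tubulin genes varied together from liver to liver. After the group mean was taken off each value, Pearson's r over the 24 livers ranged from -0.44 to 0.79 for the 36 pairs of the 9 genes, and was over 0.5 in 15 of them. Tuba1b went with Tubb5 (r = 0.79) and with Tuba1c (r = 0.75), and Tuba1a with Tubb6 (r = 0.74). Tuba8 went with Tubb2a (r = 0.74), Tubb5 (r = 0.67) and Tubb6 (r = 0.60), whereas it had r = -0.04 with Tuba4a. Thus Tuba8 and Tubb5 varied in the same direction within groups although their group differences were opposite. Without reference replicate 5, 10 of the 36 pairs were over 0.5, and r was 0.63 for Tuba8 with Tubb2a, 0.55 with Tubb5, 0.22 with Tubb6 and 0.34 with Tuba4a. These livers share groups and slides, and the correlations are a description.

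**Figure D4:**
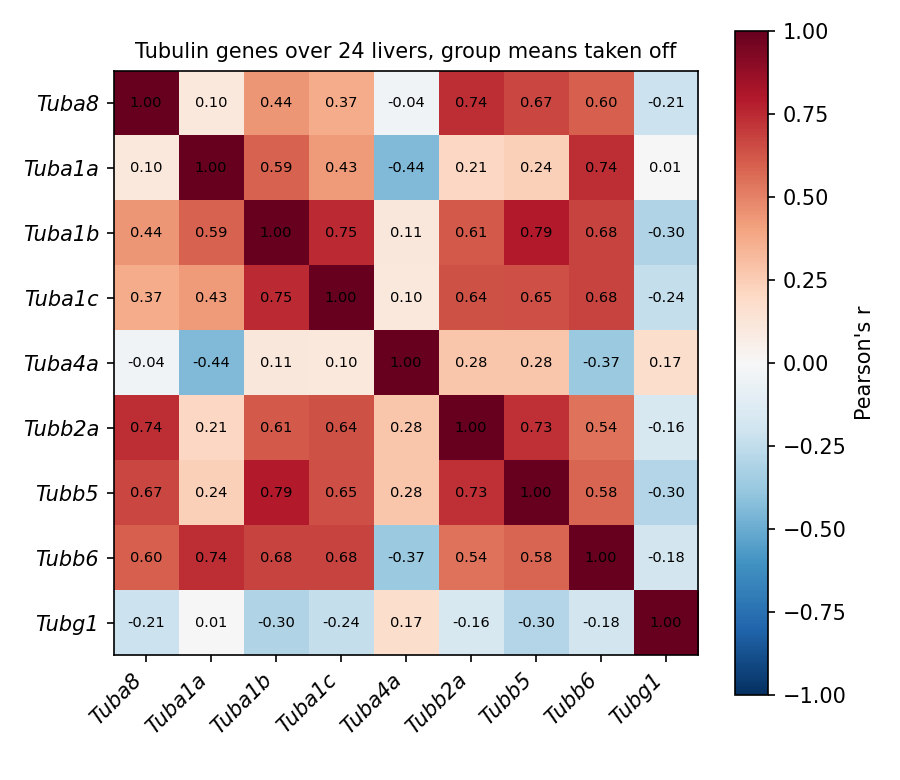
Pearson's r between the brightest probes of the 9 tested tubulin genes over 24 livers, after the group mean was taken off each value, with colour and printed number both giving r. Over all 24 livers, Tuba1b, Tuba1c, Tubb2a, Tubb5 and Tubb6 form the block of high values, up to 0.79, and Tubg1 and Tuba4a stand outside it. The places of Tubb6 and Tuba4a depend on reference replicate 5. Without that liver, r of Tubb6 with the others of the block was 0.29 to 0.47. Tuba4a then had r = 0.49 with Tuba1b, 0.58 with Tuba1c, 0.65 with Tubb2a, 0.63 with Tubb5 and -0.03 with Tubb6.

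The genes whose pattern was most like that of Tuba8 were searched among 18967 other genes with values on all 24 arrays. The 10 highest values of Pearson's r were 0.90 for 3930402G23Rik, Tbc1d8, Tmem86a and Klhdc10, 0.89 for Picalm (clathrin-coated vesicles) and Brap, and 0.88 for Ankrd27, Irs2 (the insulin receptor substrate of fasted liver) and Dst (a linker of cytoskeletal filaments), followed by 0.87 for Kif21a, a kinesin. Spearman's rho for these genes was between 0.84 and 0.94, and r without the 2 livers farthest from the Tuba8 median, reference replicate 5 and HFoleic replicate 8, was between 0.80 and 0.90. The choice by likeness to Tuba8 brings lower HFoleic means with it. For Irs2, the difference between HFoleic and reference was -1.16. When the group means were taken off, 3930402G23Rik kept r = 0.86 and Tmem86a r = 0.87, and both were again among the 5 highest, beside Rbbp8 (0.85), Samd4 (0.85) and an unnamed transcript. When each array was left out in turn, between 3 and 10 of the 10 genes stayed among the 10, the fewest without reference replicate 5 and 6 without HFepa replicate 2.

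Opposite patterns were as close. The 5 most negative values of r were -0.93 for Slc17a3 (an organic anion transporter), BC024139 and Bco2 (carotenoid cleavage), -0.92 for Lin7a and -0.90 for Nit2 (an amidase). For Slc17a3, r was -0.87 within the reference, -0.92 within HFoleic and -0.91 within HFepa, and -0.91 without the 2 farthest livers. Among the other 8 tubulin genes, Tubb2a had the highest r with Tuba8 over the 24 livers (0.66) and Tuba4a the lowest (-0.45).

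Genes that make, fold, modify or use tubulin were taken from 7 hand-written lists with 158 gene names, of which 132 were tested. Between HFoleic and reference, 7 of the 132 rose and 2 fell (6.82%, beside 8.06% over all genes, of which 4.53% higher and 3.53% lower), and between HFepa and either other group none passed (limma). The 9 genes became 4 or 5 without reference replicate 1, 3 or 7 or HFoleic replicate 1, 7 or 8, and 14 without reference replicate 8. Of the tubulin genes outside the set, 8 of the 11 on the array were tested and none passed. The closest were Tubd1, the delta tubulin of centrioles (0.23, SE 0.08, adjusted p = 0.088), and Tubb4b, a widely expressed beta tubulin (0.26, SE 0.10, adjusted p = 0.115). Tubb1, the beta tubulin of platelets, was not bright enough to be tested.

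In the folding list, 1 of 21 genes rose, Tbcb, a cofactor that handles alpha tubulin, by 0.28 (SE 0.06, adjusted p = 0.0062), with 8 of 8 HFoleic livers above the reference mean. Its mean was 11.13 ± 0.14 (SD, n = 9) in the reference and 11.41 ± 0.10 (SD, n = 8) in HFoleic. The median difference of the list was 0.06. In the nucleation list, Tubgcp4, a subunit of the gamma tubulin ring complex, rose by 0.21 (SE 0.06, adjusted p = 0.044), and the list of 14 had a median of 0.0099. Among 16 tested genes of tubulin modification, Ttll12 rose by 0.22 (adjusted p = 0.038) and Ttll5, which adds glutamate to the tubulin tail, by 0.28 (adjusted p = 0.044), with a list median of 0.04.

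Among 27 genes of microtubule binding, dynamics and severing, Clasp2, which stabilises growing ends, rose by 0.51 (SE 0.13, adjusted p = 0.016), and Map7, a microtubule-associated protein, fell by 0.27 (SE 0.08, adjusted p = 0.039). The list median was -0.02. Among 33 motor genes, Dctn4, a dynactin subunit, rose by 0.26 (adjusted p = 0.011) and Klc4, a kinesin light chain, by 0.16 (adjusted p = 0.036). Kif21a, a kinesin that limits microtubule growth, fell by 0.43 (SE 0.08, adjusted p = 0.0024). The list median was -0.04. None of 13 tested cell division genes passed, and 10 of them had lower means in HFoleic, with a median of -0.05. Under each of 33 alternatives of processing, test or left-out array, Tbcb, Clasp2, Kif21a and Dctn4 stayed past the threshold. The other 5 genes were lost under 11 to 21 of these alternatives.

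**Figure D5:**
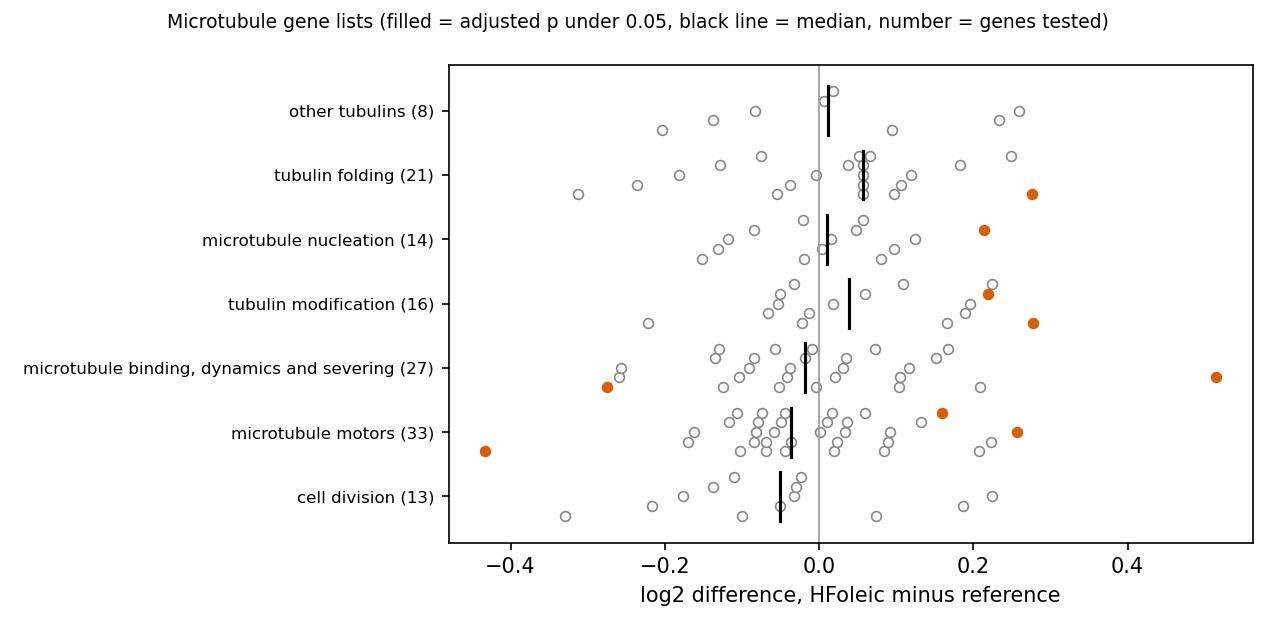
Log2 difference between HFoleic and reference (horizontal axis) for each tested gene of the 7 microtubule lists, with filled points for an adjusted p under 0.05 and a black line at the list's median. Of 132 genes, 7 filled points lie right of 0 and 2, Kif21a at -0.43 and Map7 at -0.27, lie left.

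Markers of the cell types that liver RNA can hold were read beside these values. The 10 hepatocyte markers were all tested, and 2 of them, Cps1 of the urea cycle (by 0.89 on the log2 scale, adjusted p = 0.0017) and Tat of tyrosine breakdown (by 0.63, adjusted p = 0.0086), fell in HFoleic against the reference. Over the whole list, 5 means were higher and 5 lower in HFoleic, with a median difference of 0.04. The median summed signals of the platelet and megakaryocyte, erythroid and skeletal muscle markers were lowest in HFoleic, and those of the other lists were not. Erythroid medians were 218730 in HFoleic, 247530 in the reference and 223150 in HFepa, and skeletal muscle medians 328, 329 and 336. For platelets and megakaryocytes, the summed linear signal of the 5 of 8 markers that were tested was 804 to 1304 in the reference, 640 to 807 in HFoleic and 754 to 1024 in HFepa. None of the 5 passed the test between HFoleic and reference, all had a lower mean in HFoleic, with a median of -0.30, and Itga2b, Gp1ba and Gp1bb were not bright enough to be tested. In the cholangiocyte list, Sox9 fell by 0.65 (adjusted p = 0.028), and 3 of the 4 tested genes had a lower mean in HFoleic, while Epcam, Cftr, Tff2 and Cldn4 were not bright enough. The Sox9 difference was -0.48 without reference replicate 5, and the call was lost under 4 of 33 alternatives, 2 of them without HFoleic replicate 7 or 8 (highest adjusted p = 0.086). In the stellate cell and fibroblast list, Lrat, a gene of retinol storage, rose by 0.56 (adjusted p = 0.0015), and of the 10 tested genes 4 had a higher and 6 a lower mean in HFoleic, with a median difference of -0.11. Of the skeletal muscle markers, Acta1, Myh1, Actn3 and Ckm were not bright enough to be tested, and the summed signal of the other 4 was 291 to 383 outside reference replicate 3, which was far above this range and where Tuba8 stood at 10.70. The erythroid (7 of 8 tested), endothelial (6 of 6) and macrophage (6 of 6) lists had no gene past the threshold in any comparison. The part of these cell types in the tubulin differences was not tested.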

How the data were processed

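For each array the authors deposited the file written by the scanner program (Agilent Feature Extraction 10.10.1.1). Median signal, mean signal and local background are intensity values without normalization per the file headers, and the processed signal is an intensity corrected for background. Marks for outliers and for signal well above background take the values 0 or 1. A second, quantile normalized source held log2 values of 32176 probes as deposited by the authors, and its filter is not given in the sources used here; each column matched its own array (correlation at least 0.9997). Here, log2 median signals were averaged over the spots of a probe without outlier spots. Probes well above background on 75% of the arrays of at least 1 group were kept (30003 of 56605) and quantile normalized. The number of arrays limits the precision.

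Groups came from the labels. A group-means model over 24 arrays was fitted with limma 3.58.1 (R 4.3.3, lmFit and eBayes, two-sided), with Benjamini-Hochberg adjustment over all tested probes and calls at 0.05. The methods' t-test was an alternative, as were other scalings, filters, blocks and left-out arrays. Each gene was read from its brightest tested probe (highest mean over 24 arrays). Named were all 10 tubulin genes, up to 3 called genes of each list by smallest p, the 10 genes with the highest r with Tuba8, the 5 highest after group means were taken off and the 5 lowest. Markers were named beyond this rule, after their values were seen. The genes, lists and tests were chosen with earlier results of these data known. The fit was tested on simulated data. Names and mm9 coordinates are those of the scanner files. RefSeq accessions of the probes were matched to genes through the annotation of GRCm38.p6, with 18 of 20 found. Tubb6 coordinates and the sequences of other members' probes are not reported here. The Tuba8 probe sequence is from the scanner files. Python 3.11.15, matplotlib 3.10.9 and the R package data.table (1.17.8) served for tables and figures.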

Additional observations from a re-analysis of the deposited data

Results flagged for a closer look

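Of the 27 combinations of a tested tubulin gene and a group, 2 held a liver that stood far from the others by Dixon's ratio, which chance alone gives in about 1 of 20 groups. Tubb6 in reference replicate 5 had a log2 signal of 11.26, with the next liver at 9.54 (ratio 0.596). Tuba1a in HFepa replicate 4 had a log2 signal of 8.99, with the next liver at 8.45 (ratio 0.642). Tuba8 in reference replicate 5, at 12.43, stayed under the limit (ratio 0.473).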

How the results depend on the processing

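Between HFoleic and reference, the median difference of the 9 tubulin genes, 0.27, was 0.245 with the replicate block and 0.195 to 0.391 when arrays were left out in turn, the lowest without HFoleic replicate 3 and the highest without reference replicate 5. In the comparisons with HFepa, the number of tubulin genes called stayed at 0 under every alternative with adjusted p-values. Samples with the same number had mean pairwise correlations of -0.13 to 0.14 over 7 shared numbers, and the lowest single pair had -0.30. Pairs with different numbers were not computed for comparison. The numbers were not taken to pair the livers. Differences near 0 changed sign. Between HFoleic and reference, Tubg1 was higher under 24 of 34 alternatives and lower under the others (-0.026 to 0.039 over left-out arrays). For HFepa against the reference, Tuba1a went to -0.038 with the mean of its probes, -0.003 with normexp, -0.022 with the replicate block and -0.011 with slide rows as a block (-0.090 to 0.15 over left-out arrays), Tuba1c to -0.0070 with the replicate block (-0.0053 to 0.12), and Tubb6 to 0.0038 with processed signals and 0.017 with slides as a block (-0.16 to 0.27). For HFepa against HFoleic, Tubb2a went to -0.049 with the replicate block, -0.027 with slides and -0.0016 with slide rows (-0.11 to 0.18). Tuba8 kept its direction under each alternative, at -2.17 to -1.71 between HFoleic and reference, -1.10 to -0.64 between HFepa and reference and 0.90 to 1.24 between HFepa and HFoleic over left-out arrays, with limma adjusted p-values of 0.171 to 0.433 and 0.199 to 0.647 in the 2 comparisons with HFepa. Of all probes, 2170 were called between HFoleic and reference (1602 to 3097 over left-out arrays), 118 between HFepa and reference (60 with processed signals, 0 without a filter, 0 with the methods' t-test and 0 to 499 over left-out arrays, the most without reference replicate 8) and 0 between HFepa and HFoleic (2 with the stricter filter, 0 to 15 over left-out arrays, the most without HFepa replicate 5). The 9 genes called in the microtubule lists became 4 without a filter and 5 with the methods' t-test, and 4 to 14 over left-out arrays, the fewest without reference replicate 1 or 7 and the most without reference replicate 8. The difference of 0.14 for Tubb6 between HFoleic and reference was lowered by reference replicate 5, and was 0.41 without it. The count of pairs with r over 0.5 without that liver was chosen after seeing the data. Probes near background, such as that of Tubb2b, give no difference.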
